A study of Mus musculus with 2 samples.

Results

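Genes of the V-ATPase, the cathepsins and the lysosomal membrane were examined in lenses of mice 7 days (P7) and 60 days (P60) after birth. The set was chosen by gene symbol alone: subunits of the V-ATPase (Atp6v1 and Atp6v0 genes), its accessory subunits (Atp6ap genes), cathepsins named by a single letter, and the lysosomal membrane genes Lamp1, Lamp2, Laptm4a, Laptm4b and Scarb2. It holds 45 of the 18194 genes that the array names by a symbol of their own. They comprise 12 V1 subunits, 8 V0 subunits, 2 accessory subunits, 18 cathepsins and 5 lysosomal membrane genes. The V0 proteolipid gene Atp6v0c is not analysed here.

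The lenses came from untreated wild-type mice of the C57/BL6 strain, 7 days old in one group and 60 days old in the other, and the ages share strain and tissue. Each age was 1 pool of lenses whose RNA went to 1 array, and the sources used here do not state the number, sex or collection hour of the pooled animals. No value therefore has a replicate, the ages cannot be compared by a test, and each difference is given as a size. Values are MAS5 signal intensities in arbitrary units, and each gene is read from its brightest probe set, a group of short probes for a transcript. A gene counts as measured above a floor of 103.9, the median of all values, on at least 1 array, and lower values were set to the floor in the log2 ratios of P60 over P7. A difference of 2-fold, or 1 on the log2 scale, was counted as higher or lower.

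The lysosome is the acidic organelle in which cells digest proteins, lipids and sugars taken in from outside or delivered by autophagy. The V-ATPase acidifies it: the V1 sector in the cytosol splits ATP and turns a rotor, and the V0 sector in the membrane carries protons across. Cathepsins are proteases, most of them active at acid pH, and glycoproteins such as LAMP1 and LAMP2 line the membrane. Lens fibre cells lose their nuclei and organelles as they mature, so lysosomes are kept in the epithelium and the outer fibres. Transcription factors of the TFEB and TFE3 family bind a CACGTG core, known as the E-box, in promoters of many lysosomal genes, and the longer form TCACGTGA is the centre of the element called CLEAR.

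Promoter sequences were not used in the choice by symbol. The E-box and CLEAR motifs are already known from promoters of lysosomal genes, so a raised share in this set is not independent evidence. Windows from 250 bases before to 50 bases after the annotated start, from RefSeq (GRCm38.p6), were matched by gene number for 34 of the 45 genes, 2 of which have 2 windows. Both motifs read the same on either strand, and every TCACGTGA contains the shorter motif. The shorter motif, CACGTG, occurred in the windows of 9 of these 34 genes (26.5%), against 8.09% of the 27025 genes of the table. Among the 25 that were measured in lens the share was 36.0%, against 11.4% of the 10478 table genes above the floor on at least 1 array. TCACGTGA occurred in 5 of the 34 (14.7%), against 1.12% and 2.07%. All 9 genes with a CACGTG, namely Atp6v0b, Atp6v0d1, Atp6v0e, Atp6v1a, Ctsa, Ctsd, Ctsf, Ctsl and Lamp1, were above the floor on both arrays, and none of the 9 matched genes that were under it on both arrays held one. Of all 3891 table genes under the floor on both arrays, 7.22% held one, so none of 9 is near that share.

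The following stretches are shown because a whole CACGTG lies within them. They are the 100 bases that end just before the start of Lamp1 (chr8:13159061-13159160 on the plus strand), Atp6v0b (chr4:117887330-117887429 on the minus strand), Ctsd (chr7:142387828-142387927 on the minus strand), Ctsf (chr19:4855065-4855164 on the plus strand) and Ctsa at the second of its windows (chr2:164833673-164833772 on the plus strand). Capitals mark CACGTG, and each sequence runs 5′ to 3′ along the gene's strand.
Lamp1: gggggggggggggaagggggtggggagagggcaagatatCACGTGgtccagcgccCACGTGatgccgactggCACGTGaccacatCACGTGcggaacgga
Atp6v0b: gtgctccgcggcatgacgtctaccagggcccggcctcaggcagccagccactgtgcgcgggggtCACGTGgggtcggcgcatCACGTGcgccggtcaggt
Ctsd: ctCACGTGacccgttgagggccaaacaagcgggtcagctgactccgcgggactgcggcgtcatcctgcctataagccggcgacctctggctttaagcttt
Ctsf: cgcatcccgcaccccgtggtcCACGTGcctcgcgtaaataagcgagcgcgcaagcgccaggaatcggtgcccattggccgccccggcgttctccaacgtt
Ctsa: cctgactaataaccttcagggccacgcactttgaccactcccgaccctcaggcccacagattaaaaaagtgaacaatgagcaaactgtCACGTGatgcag
Lamp1 held 4 copies, whose first bases lay 61, 45, 28 and 15 bases before the start, and Atp6v0b held 2 copies, at 36 and 18 bases before it. In Ctsd the copy 98 bases before the start and in Ctsa the copy 12 bases before it were of the longer form TCACGTGA. The copies nearest the start are not shown, as they do not lie wholly before it. They were that of Atp6v0d1, with its first base 3 bases before the start, and that of Atp6v0e, from base 4 with the start as base 1. Both were of the longer form. A match is a run of letters in a window and not a measured binding site.

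Across the 33 measured genes the set stayed close to its P7 values. At P60, 3 were at least 2-fold higher, none was 2-fold lower and 30 were within 2-fold. Among all 13029 genes measured on these arrays, 11.5% were higher by that measure, 9.44% lower and 20.9% in either direction. The share higher in the set was 9.09%, near the background. The median log2 ratio was 0.20, against 0.02 over all genes, and 22 of the 33 ratios lay above 0, against 51.2% of all genes. The ratios spread less than those of all genes, with an SD of 0.55 against 0.90. Of the 33, 31 were above the floor on both arrays, against 10599 of the 13029 genes. The part of signal level in that spread was not tested. As a guide to measurement error, log2 ratios of probe sets that read 1 gene had a pooled SD of 0.58 around their mean over 4239 genes, and 25 of the 33 genes had a ratio no larger than that. This SD leaves out differences between animals and pools.

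**Figure D1:**
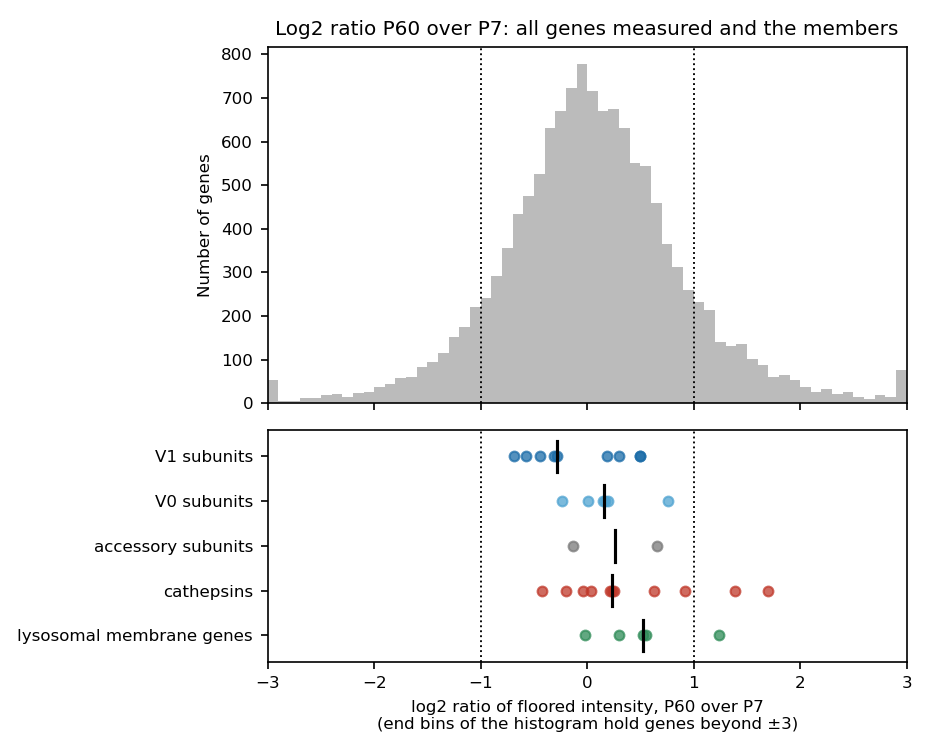
The upper panel is a histogram of the log2 ratio of floored intensity, P60 over P7, for the 13029 genes measured, and the lower panel shows each of the 33 measured members as a point by group, with a black bar at the group median. Dotted lines mark 2-fold, and 3 members, 2 cathepsins and 1 lysosomal membrane gene, lie beyond the upper line and none beyond the lower.

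All 9 named lens fibre markers, among them Cryaa, Mip and Bfsp1, were far above the floor on both arrays. On their brightest probe sets all 9 were within 2-fold, as were 79.1% of all genes measured. Gja3 had another probe set at a log2 ratio of -1.30. The 5′ over 3′ signal ratio of control transcripts, which falls as RNA or cDNA is shortened, was lower at P60: 0.606 against 0.785 for beta-actin, 1.29 against 1.39 for Gapdh and 0.0262 against 0.0995 for the dap spike-in, which is not lens RNA. The sources used here do not state where on its transcript each probe set lies, and the part of this difference in the ratios was not tested. In RNA from whole pooled lenses, fewer cells of a type and less RNA per cell cannot be told apart.

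The V1 sector had 9 measured genes, none of which reached 2-fold. Their median log2 ratio was -0.28, in a range from -0.69 to 0.50. Among them, Atp6v1g2 was measured only through its P7 value, so its ratio of -0.44 could not lie above 0. The sector median lay between -0.09 and 0.03 with a floor of 50, a floor of 200 or quantile normalization. With the floor of 200, which leaves Atp6v1g2 out, it was -0.04 over 8 genes. Genes for parts that work side by side in the sector lay on opposite sides of 0. In the catalytic head, Atp6v1a, which encodes the ATP-splitting A subunit, read 2084 at P7 and 2385 at P60, a log2 ratio of 0.19. Its partner Atp6v1b2, for the B subunit, read 4429 at P7 and 2993 at P60 and was 1.48-fold lower. The A subunit gene was thus slightly higher and the B subunit gene lower, both by less than 2-fold, although the second probe set of Atp6v1a stood at -0.38.

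In the rotor, Atp6v1d read 3398 at P7 and 4800 at P60, 1.41-fold higher. Atp6v1f read 9905 at P7 and 6148 at P60, 1.61-fold lower, the lowest ratio of the whole set. All 3 probe sets of Atp6v1d were above 0, from 0.24 to 1.60, and the dimmest of them, at 1074 and 3260, was 3.04-fold higher by itself. Atp6v1f rests on 1 probe set.

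In the outer stalks that hold the head still, Atp6v1e1 read 6774 at P7 and 9606 at P60, 1.42-fold higher. Its stalk partner Atp6v1g1 read 11129 at P7 and 9146 at P60, a log2 ratio of -0.28. The other 2 measured probe sets of Atp6v1e1 had ratios below 0, down to -0.32, so its direction depends on the probe set. Atp6v1c1, for the C subunit that leaves when the sectors come apart, read 6523 and 8044, a log2 ratio of 0.30, with its other probe sets at -0.23 and -0.49. Atp6v1h, for the regulatory H subunit, read 1300 and 1049, a log2 ratio of -0.31 that its other measured probe set shared at -0.22. Atp6v1g2, an isoform best known from neurons, read 141 in the younger lens and 103, just below the floor, in the older, at least 1.36-fold lower.

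The V0 sector had 6 measured genes, none of which reached 2-fold either. Their median log2 ratio was 0.16, in a range from -0.24 to 0.76. Atp6v0e, for a small membrane subunit, had the highest ratio of the whole pump, with 2616 at P7 and 4442 at P60, 1.70-fold higher. Its paralog Atp6v0e2 went the other way, with 2431 at P7 and 2061 at P60, and had the lowest ratio of the sector. Each of these 2 genes rests on 1 probe set, and the difference between them was not tested.

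Atp6v0a1 and Atp6v0a2 encode isoforms of the large a subunit, which lines the proton path and directs the pump to its membrane. Atp6v0a1 read 327 at P7 and 376 at P60, a log2 ratio of 0.20. Atp6v0a2 read 647 and 653, a log2 ratio of 0.01. Their other probe sets were far apart: that of Atp6v0a1 reading 43.9 at P7 and 209 at P60 was at least 2.01-fold higher, and that of Atp6v0a2 reading 452 and 135 had a log2 ratio of -1.74, the only measured probe set of the whole set that was 2-fold lower. For Atp6v0a2 the direction is therefore not settled by these arrays. Atp6v0d1, which couples the rotor to the membrane ring, read 4332 at P7 and 4813 at P60. Atp6v0b, for a proteolipid of that ring, read 2513 and 2831, with its 3 probe sets from -0.30 to 0.17.

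The accessory subunits differed from each other. Atp6ap1, which is needed for pump assembly and targeting, read 3400 at P7 and 5379 at P60, 1.58-fold higher on its 1 probe set. Atp6ap2, also known as the prorenin receptor, read 7953 and 7291, a log2 ratio of -0.13, and all 3 of its probe sets lay between -0.22 and -0.13.

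**Figure D2:**
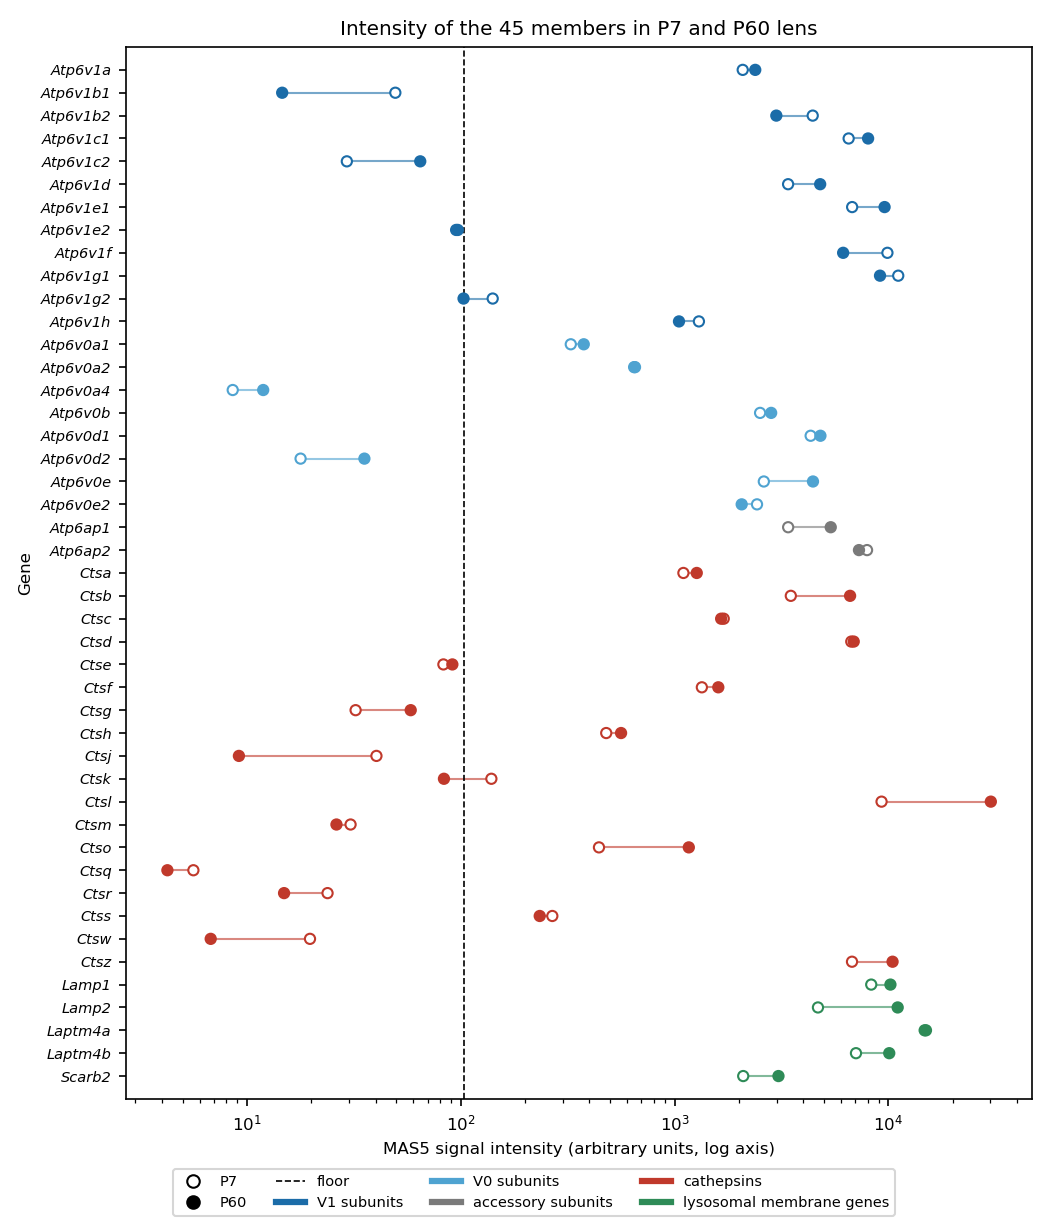
Each row is a gene of the set, with the MAS5 signal intensity of its brightest probe set at P7 (open circle) and P60 (filled circle) on a log axis, coloured by group, and the dashed line is the floor of 103.9. In 31 genes both circles lie right of the floor and in 12 both lie left of it, and the widest gap among the measured genes is that of Ctsl, 9298 at P7 and 30174 at P60.

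Over all genes 13029 of the 18194 were measured, and 33 of the 45 of the set. Isoforms known from few tissues mostly read under the floor, which is not a detection call. Of 6 such V-ATPase genes, 5 were under the floor on both arrays: Atp6v1b1 and Atp6v0a4, known from kidney intercalated cells, Atp6v0d2, known from osteoclasts, Atp6v1c2, and the testis isoform Atp6v1e2, whose 95.1 and 96.8 came closest to the floor. The other of the 6, Atp6v1g2, was measured but near the floor, at 141 and 103. Among cathepsins, Ctss (268 and 234) and Ctsk (139 and 83.4), also best known from few cell types, were measured. The 4 placental cathepsins Ctsj, Ctsm, Ctsq and Ctsr were all under the floor, as were Ctse, known from stomach and blood cells, Ctsg of neutrophils and Ctsw of cytotoxic lymphocytes.

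The 11 measured cathepsins held 2 of the 3 genes that reached 2-fold, and their median log2 ratio was 0.23. Ctsl encodes cathepsin L, a cysteine endopeptidase that degrades proteins in the lysosome. It read 9298 at P7 and 30174 at P60, 3.25-fold higher, the largest difference of the set. Its second probe set, of much lower signal and under the floor at P7, read 93.2 and 440, at least 4.24-fold higher. Both probe sets of Ctsl thus put P60 above P7 by more than 2-fold. Ctso, for cathepsin O, a cysteine protease of the same family, read 443 at P7 and 1166 at P60, 2.63-fold higher. Its other probe set was under the floor on both arrays, so the difference rests on 1 probe set. With the mean of both probe sets the log2 ratio was -0.29. That mean was taken before the floor was applied, so values of 36.5 (P7) and 8.94 (P60) from the dimmer probe set entered it. With the floor applied, the dimmer probe set had a ratio of 0.00, so the -0.29 is not a reversal in measured signal.

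Ctsb was the gene just short of 2-fold, and Lamp2 had the lowest ratio of the 3 genes that reached it. Ctsb encodes cathepsin B, a cysteine protease that also trims peptides from their ends, and read 3499 at P7 and 6625 at P60, 1.89-fold higher. Its other 3 measured probe sets had ratios of 0.36, -0.11 and -0.14, so the higher value belongs to its brightest probe set. Ctsz, for the carboxypeptidase cathepsin Z, read 6764 at P7 and 10469 at P60, 1.55-fold higher. All 3 probe sets of Ctsz were above 0, from 0.39 to 0.87.

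Ctsa, Ctsc, Ctsd, Ctsf and Ctsh were within 0.25 of 0 on the log2 scale on their brightest probe sets. Ctsd, for the aspartic protease cathepsin D, read 6710 at P7 and 6890 at P60, a log2 ratio of 0.04. Ctsc, for the dipeptidyl peptidase that activates serine proteases of blood cells, read 1698 and 1652. Ctsa, for a serine carboxypeptidase that protects lysosomal sialidase and galactosidase, read 1100 and 1270 (log2 ratio 0.21). The second probe set of Ctsa, at 179 and 88.2, had a ratio of -0.79, so its direction depends on the probe set. Ctsh, an aminopeptidase, stood at 0.23 with its other probe set at 0.70, and Ctsf, a cysteine protease, at 0.25 with its other at 0.02.

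The lowest cathepsin ratios were those of Ctsk and Ctss, best known from osteoclasts and from macrophages and other antigen-presenting cells. Ctsk read 139 in the younger lens and 83.4, below the floor, in the older, at least 1.34-fold lower. It was measured only through its P7 value, so its ratio could not lie above 0. Ctss read 268 and 234, a log2 ratio of -0.20. Of 16 macrophage and microglia markers, 9 were above the floor at P7 and 6 at P60, their summed intensity was 2008 at P7 and 1566 at P60, and Ptprc, Aif1, Cd68, Cd14 and Mpeg1 were under the floor on both arrays. Csf1r, the receptor that macrophages need, read 420 and 429. The part of such cells in the cathepsin values was not tested.

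**Figure D3:**
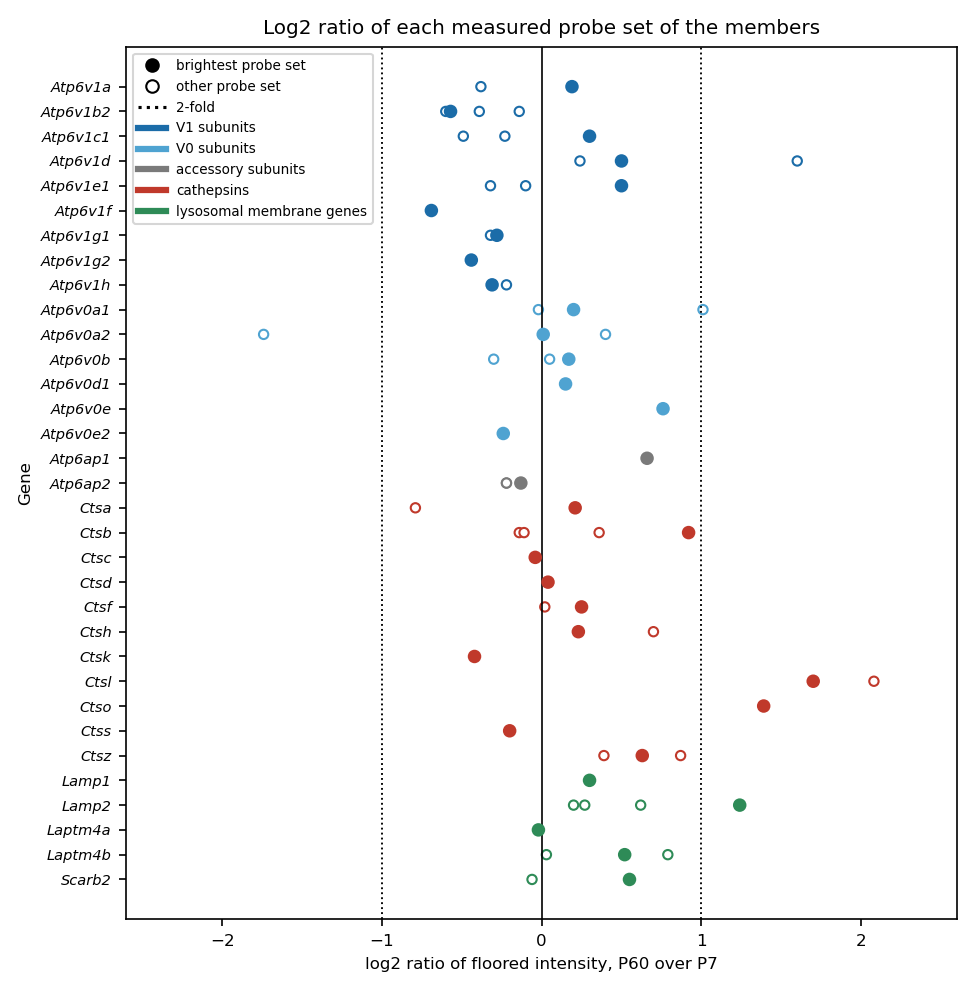
The horizontal axis is the log2 ratio of floored intensity, P60 over P7, for each measured probe set of the 33 measured genes; filled points are the brightest probe set of a gene and open points the others, and dotted lines mark 2-fold. Both points of Ctsl lie right of the upper line, while Lamp2 has 1 point right of it at 1.24 and 3 between 0.20 and 0.62.

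Probe sets of the same gene often split, here as on the arrays at large. Of 20 genes of the set with 2 or more measured probe sets, 9 had them on both sides of 0, and so had 46.0% of the 5624 such genes on the arrays. Of 68 measured probe sets of the set, 6 were at least 2-fold higher: both of Ctsl, 1 each of Ctso, Lamp2, Atp6v1d and Atp6v0a1. The 1 that was 2-fold lower belonged to Atp6v0a2.

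The lysosomal membrane group had a median log2 ratio of 0.52 over 5 genes, the highest of the 5 groups, and 1 gene reached 2-fold. With the dimmest probe set of each gene that median was 0.03. Lamp2 encodes a membrane glycoprotein that serves chaperone-mediated autophagy and the fusion of autophagosomes with lysosomes. It read 4687 at P7 and 11062 at P60, 2.36-fold higher. Its other 3 probe sets were 1.53-fold, 1.20-fold and 1.15-fold higher, so all 4 agreed in direction and 1 reached 2-fold. Lamp1, the other main glycoprotein of the membrane, read 8320 at P7 and 10231 at P60, 1.23-fold higher.

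Scarb2 encodes LIMP-2, the receptor that carries glucocerebrosidase to the lysosome. It read 2095 at P7 and 3063 at P60, 1.46-fold higher, with its other probe set at -0.06. Laptm4a and Laptm4b encode small membrane proteins of late endosomes and lysosomes. Laptm4b read 7060 and 10101, 1.43-fold higher, with its 3 probe sets from 0.03 to 0.79. Laptm4a read 15002 and 14794 and was level, so the paralogs differed in these arrays by about the SD between probe sets.

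The 3 genes that reached 2-fold did not share the E-box. The 250 bases before the start are shown for Ctsl (chr13:64370521-64370770 on the minus strand), Lamp2 (chrX:38456461-38456710 on the minus strand) and Ctso (chr3:81932351-81932600 on the plus strand), again 5′ to 3′ with CACGTG in capitals.
Ctsl: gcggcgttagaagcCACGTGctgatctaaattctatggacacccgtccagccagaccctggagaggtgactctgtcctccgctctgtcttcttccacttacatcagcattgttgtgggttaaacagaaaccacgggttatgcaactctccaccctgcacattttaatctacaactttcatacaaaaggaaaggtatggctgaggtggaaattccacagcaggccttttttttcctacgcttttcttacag
Lamp2: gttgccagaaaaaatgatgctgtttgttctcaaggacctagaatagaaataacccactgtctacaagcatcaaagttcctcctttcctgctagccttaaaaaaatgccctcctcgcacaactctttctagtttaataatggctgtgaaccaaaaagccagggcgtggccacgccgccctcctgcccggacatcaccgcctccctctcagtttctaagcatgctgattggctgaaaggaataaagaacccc
Ctso: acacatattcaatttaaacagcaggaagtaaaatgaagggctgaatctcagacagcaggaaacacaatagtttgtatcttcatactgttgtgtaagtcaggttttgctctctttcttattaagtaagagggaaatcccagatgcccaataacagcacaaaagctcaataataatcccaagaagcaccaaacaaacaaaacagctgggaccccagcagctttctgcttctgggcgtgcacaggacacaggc
Ctsl held 1 copy with its first base 236 bases before the annotated start, and Lamp2 and Ctso held none in their windows. Whether transcription in lens begins at the annotated starts was not tested, so the Ctsl stretch may not be its promoter. Among the 25 measured genes with a window, the median log2 ratio was 0.21 for the 9 with a CACGTG, which ranged from 0.04 to 1.70, and 0.09 for the 16 without one, which ranged from -0.69 to 1.39. All 9 ratios of the first group were above 0, 7 of them by 0.30 or less, as were 8 of the 16 without the motif, and the ranges overlap. Other probe sets of Atp6v1a (-0.38), Atp6v0b (-0.30) and Ctsa (-0.79) lay below 0, so that count depends on the choice of probe set. For the 5 genes with TCACGTGA the median was 0.19, against 0.23 for the 20 others.

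The other genes of the pathway are given by list, and each count reads against the 11.5% of all measured genes that were 2-fold higher and the 9.44% that were 2-fold lower. Of 32 named lysosomal hydrolases and their activators, all of them measured, 10 were at least 2-fold higher and 1 was 2-fold lower, with a median log2 ratio of 0.56. Among the 10, Ids and Fuca1 had probe sets down to -0.14 and -0.19. Those of Psap and Gm2a stayed above 0, and the rest had 1 measured probe set each. The lists were not recomputed under other settings. Arsb, a sulfatase that acts on dermatan sulfate, read 440 at P7 and 2473 at P60, 5.62-fold higher. Dnase2a, the acid DNase of the lysosome, read 354 and 1132, 3.20-fold higher. Gla, the alpha-galactosidase missing in Fabry disease, read 374 and 147, 2.54-fold lower, and Gusb, a glucuronidase, had a log2 ratio of -0.90. Each of Arsb, Dnase2a and Gla rests on 1 probe set. Among 18 measured further membrane proteins, 5 were 2-fold higher and none lower (median 0.40). Of the 5, Abcb9 had probe sets down to -0.08 and Lmbrd1 down to 0.02, and Tpcn1 and Slc29a3 had 1 measured probe set each. Clcn7, the chloride and proton exchanger of the lysosome, read 377 at P7 and 2073 at P60, 5.50-fold higher, and its other probe set had a ratio of 1.43. The nucleoside transporter gene Slc29a3 was 2.84-fold higher, whereas Hgsnat, an acetyltransferase of heparan sulfate breakdown, stood at -0.83 and the sialic acid exporter gene Slc17a5 at -0.52.

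The next lists hold genes that deliver enzymes to the lysosome, assemble the pump or control the pathway. Of 13 measured sorting genes 1 was 2-fold higher and 2 lower (median -0.23). Igf2r, the large mannose 6-phosphate receptor, read 2713 at P7 and 708 at P60, 3.83-fold lower, with its probe sets from -1.94 to -0.51. Gga1, a sorting adaptor, was at least 3.04-fold lower, while Cln6 (1.01) and Cln8 (0.69) had the highest ratios. Gga1 was measured only through its P7 value, so its ratio could not lie above 0. Of 11 measured genes of V-ATPase assembly and regulation none was 2-fold higher and 1 was lower (median -0.45). Ccdc115, an assembly factor, read 534 and 188, 2.84-fold lower, and Tmem199, its partner, stood at -0.77. Rogdi (0.77) and Meak7 (0.56) had the highest ratios.

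Of 17 measured genes that control the lysosome, 2 were 2-fold higher and 2 lower (median -0.09). The transcription factor gene Tfe3 read 291 at P7 and 582 at P60, just at the 2-fold limit, on 1 probe set, while its relative Tfeb read 264 and 190 (log2 ratio -0.48). The kinase gene Mtor was 3.20-fold higher on its brightest probe set, with the lowest of its others at 0.13. Flcn and Rraga, which act upstream of that kinase, were 2.58-fold and 2.33-fold lower, but the probe sets of Flcn reached 0.28. Of 4 measured cathepsin inhibitors 1 was 2-fold higher: Cst3, for the secreted cystatin C, read 8571 at P7 and 19007 at P60, 2.22-fold higher on 1 probe set. Serpinb6a stood at 0.98. Cst6, under the floor at P7 with 2.64, reached 196 at P60 and was at least 1.89-fold higher. Cstb, for the cytosolic inhibitor stefin B, had the lowest ratio, 0.50. Cst6 was measured only through its P60 value, so its ratio could not lie below 0.

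**Figure D4:**
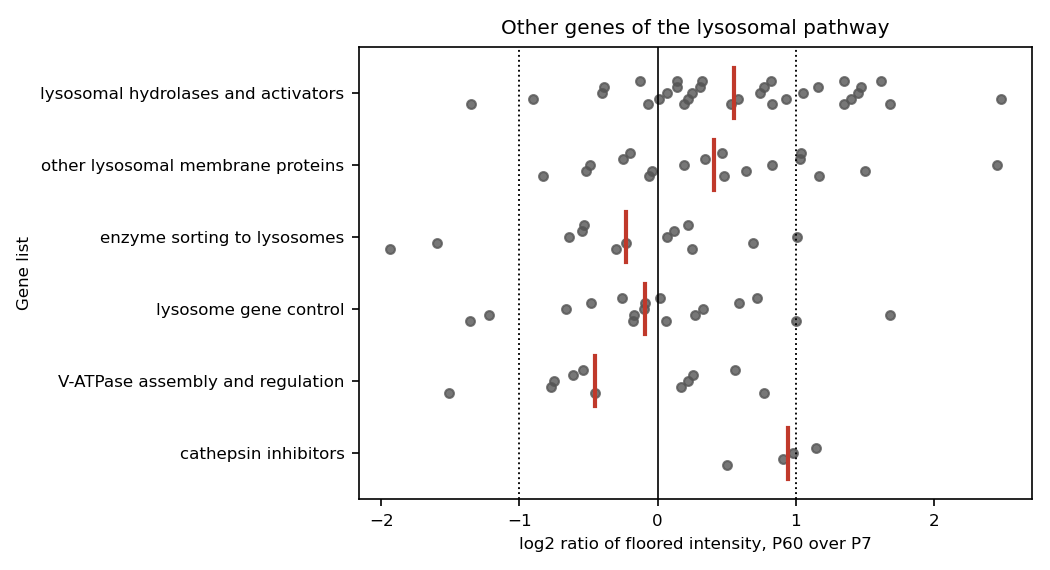
Each point is the log2 ratio of floored intensity, P60 over P7, of a measured gene of the list named on the vertical axis (points are spread vertically for visibility), red bars are list medians and dotted lines mark 2-fold. The hydrolases have their median at 0.56 with 10 genes beyond the upper line, and the V-ATPase assembly genes have theirs at -0.45 with none beyond it.

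Markers of other cells differed from list to list, against 20.9% of all genes past 2-fold in either direction. Of 5 lens epithelium genes, Cdh1 (2.73-fold) and Gja1 (2.37-fold, with its probe sets from -0.37 to 2.72) were higher and Foxe3 was 2.61-fold lower. Of 7 measured genes of blood vessel endothelium, 6 reached 2-fold lower at P60 (summed intensity 4038 at P7 and 926 at P60). Among them, Cdh5, Tek, Cldn5, Esam and Emcn were measured only through their P7 values. The ratios of these genes could therefore not lie above 0. Pigment cells keep their melanin in organelles related to lysosomes. Of their 9 markers, 1 was 2-fold higher and 2 were lower, with a summed intensity of 4868 at P7 and 5563 at P60. The higher sum at P60 comes from Oca2, a melanosome transporter gene, which read 290 at P7 and 2502 at P60. The other 8 markers summed to 4578 at P7 and 3062 at P60, with Tyrp1 at 764 and 182 and Pmel at 503 and 234. Of 5 measured retinal genes 2 were lower and 1 higher, the rod transducin gene Gnat1 (12.8 at P7 and 789 at P60, at least 7.59-fold). Of 3 measured corneal genes 1 was higher, Aldh3a1, which read 62.6 at P7 and 18639 at P60, at least 179-fold, while the corneal keratin gene Krt12 did not exceed the floor. Gnat1 and Aldh3a1 were measured only through their P60 values, so their ratios could not lie below 0. The part of the cell mix in the ratios of the lysosomal genes was not tested.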

How the data were processed

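Lens RNA from 1 pool per age was measured on an array of 45101 probe sets. The authors deposited linear signal intensities made with MAS5, per the submitters' processing notes. The sources used here do not state its version, scaling target or detection calls. After 2% of probe sets were trimmed from each end, the mean intensity was 500.0 on both arrays, so the authors' values are scaled to a common level. The array annotation gave 34958 probe sets 1 symbol, 932 several and 9211 none, and only the first were used. The brightest probe set on average over both arrays stood for each gene. Ratios were computed in Python 3.11.15 with pandas 2.3.3, and the calculation was tested on simulated data. The genes of the set and the lists were chosen with earlier results of these data known. Named are members past 2-fold, the 2 highest and 2 lowest ratios of each group, and of each pathway list the 2 highest, the 2 lowest and any past 4-fold; further genes were added for their roles, after their values were seen. The alternatives were floors of 50 and 200, a pseudocount of 32, no floor, quantile normalization, median centring, other choices of probe set and a 1.5-fold limit. With 1 array per age, precision is limited by the number of arrays.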

Additional observations from a re-analysis of the deposited data

How the results depend on the processing

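No paired analysis was possible because each age is 1 array. Under the 10 alternatives, 60 of 74 recomputed counts and medians stayed within 1.5 times the count, or within the probe set SD over the square root of the number of genes. Ctsl was at least 2-fold higher in all of them. Ctso, Lamp2 and Ctsl were the only genes higher with either floor, the pseudocount, both scalings and probe sets without a letter suffix. The mean of all probe sets was taken before the floor was applied, so values under the floor entered it. With that mean, 1 gene was higher (Ctsl) and 3 were lower (Atp6v1b2, Atp6v1g1 and Atp6v1h). Ctso turned to -0.29, and the medians were -0.02 for the set and -0.07 for cathepsins. The same setting turned Ctsb from 0.92 to -0.50. Probe sets under the floor on both arrays entered for Atp6v1g1 (89.7 and 10.3), Atp6v1h (63.7 and 19.7) and Ctsb (78.2 and 6.89). The same held for Ctso (36.5 and 8.94). One of Atp6v1b2 read 115 and 12.2. With the floor applied, the lowest measured probe set stood at -0.60 for Atp6v1b2, -0.32 for Atp6v1g1 and -0.31 for Atp6v1h. With the dimmest probe sets, 2 genes were higher, Ctsl and Atp6v1d (1.60), Lamp2 stood at 0.27, Ctso was not measured, and the medians were 0.03 for the set and 0.03 for the lysosomal membrane genes. Without suffixed probe sets the median of the set was 0.01. The median of V1 subunits was 0.03 with a floor of 50, -0.04 with a floor of 200 and -0.09 after quantile normalization, as the number of measured V1 genes changed to 11, 8 and 10. With no floor, 3 genes were lower, all under the floor otherwise (Atp6v1b1, Ctsj and Ctsw), and the cathepsin median was 0.09. At 1.5-fold, 7 were higher and 1 lower, against 22.7% and 20.1% of all genes (the settings were applied to all genes as a choice made after seeing the data). Signals near the floor carry no order.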
